A study of Mus musculus with 45 samples.

Results

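Transcripts that the growing oocyte makes and hands to the embryo were followed through 4 stages of mouse development with and without the transcription factor GABPA. The set was 10 genes taken by their symbols, Gdf9, Bmp15, Zp1, Zp2, Zp3, Mos, Oosp1, H1foo, Zar1 and Oog1, out of 55385 genes in the deposited RNA-seq files, and each of the 10 was found there once.

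All embryos and cells carried Gabpa-dTAG/dTAG, in which both copies of Gabpa are fused to a degron tag, so that the small molecule dTAG13 triggers destruction of the GABPA protein. The controls carried the same alleles and received DMSO. Late two-cell embryos were treated with 1 μM dTAG13 from the middle of the zygote stage (3 DMSO and 3 dTAG13 libraries), morulae from the four-cell stage (2 and 2), and the inner cell mass at embryonic day 4.5 (E4.5 ICM) from the early blastocyst (2 and 2). ICMs were freed of trophectoderm by immunosurgery and held epiblast and primitive endoderm. Mouse embryonic stem (ES) cells, a Gabpa-dTAG/dTAG line grown in culture, received 0.5 μM dTAG13 for 24 h (2 and 2). Embryos came from in vitro fertilisation of eggs that had been collected inside their cumulus cells, and neither the labels nor the methods gave the number of embryos per library. The 18 libraries held 9457933 to 27660132 expected counts, with the morulae the shallowest at 9457933 to 12382705. The study describes the replicates as biological, and no label ties them to separate matings or cultures, so p-values measure the spread between these libraries. Since dTAG13 removes protein, Gabpa RNA does not check the treatment.

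A mouse oocyte stockpiles messenger RNA while it grows and then falls silent. After fertilisation the embryo degrades most of this stock around the two-cell stage, when its own genome becomes active, and germline genes such as those for the egg coat are thought to stay shut in the cells that follow. RNA left over from the egg and RNA newly made by the embryo cannot be told apart in these libraries, and no oocyte library was analysed, so levels are given against the late two-cell controls and not against the egg. The cDNA was primed on poly(A) tails, so a message that had lost its tail would be counted low. Levels are in FPKM, a count of fragments set against the length of the transcript and the size of the library, which allows comparison between genes and is relative to the rest of the RNA in a library.

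Of the markers fixed for each stage, all 8 two-cell markers (Zscan4 and its neighbours in time) reached a mean of 1 FPKM in late two-cell controls, where they summed to 573 to 990 FPKM, against 5.18 to 9.97 FPKM in control morulae. Epiblast and ES cell markers summed to 947 to 955 FPKM in control ICMs and 655 to 816 FPKM in control ES cells. Cells other than the embryo were looked for by marker lists. In the late two-cell controls 10 of 16 cumulus and granulosa markers had a count in some library and 3 reached a mean of 1 FPKM. The list summed to 46.4 to 61.5 FPKM there, and Amh, Inha and Fshr were at 0 in all 6 late two-cell libraries. Carry-over of cumulus cells was not tested. The 9 blood markers summed to 196 to 225 FPKM in the controls and to 177 to 991 FPKM in the dTAG13 embryos. The highest sum was that of dTAG13 replicate 1, with Saa3 (an acute-phase protein) and Cyba (a subunit of the phagocyte oxidase) called higher in the group. Cultured control ES cells summed to 200 to 215 FPKM on the same list, with means of 88.9 FPKM for Saa3 and 99.3 FPKM for Cyba. The list is therefore not particular to blood cells here.

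In control late two-cell embryos all 10 transcripts were present, and their levels ran over 3 orders of size. Oosp1, which encodes an oocyte-secreted protein, lay at 1241, 1257 and 1224 FPKM in the 3 control libraries. Oog1 (oogenesin 1, a leucine-rich repeat protein of oocytes and early embryos) lay at 599.08, 660.9 and 691.66 FPKM. By mean FPKM among all genes Oosp1 had rank 109 and Oog1 rank 235.

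The genes for the egg coat and for the oocyte's growth factors came next. Zp3, a zona pellucida glycoprotein, lay at 85.99, 96.2 and 86.2 FPKM, Zp2 at 20.8, 21.6 and 18.8 FPKM, and Zp1, which cross-links the zona filaments, at 10.95, 11.2 and 6.41 FPKM. Bmp15, an X-linked growth factor of the TGFβ family that oocytes secrete to their follicle cells, lay at 47.6, 44.6 and 58.9 FPKM. Its relative and partner Gdf9 lay at 25.3, 31.2 and 31.4 FPKM. The order Oosp1, Oog1, Zp3, Bmp15 held without overlap between neighbours, as did Gdf9 above Zp2 and Zp2 above Zp1.

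H1foo, the oocyte linker histone, lay at 43.3, 27.4 and 27.01 FPKM and overlapped Gdf9. Zar1, an RNA-binding maternal factor named for the zygote arrest of its mutants, lay at 5.03, 4.26 and 2.99 FPKM. Mos, the kinase that drives MAP kinase activity to hold the egg at metaphase II, was the lowest at 1.47, 0.95 and 1.13 FPKM. Together the 10 genes made up 0.198% to 0.206% of the RNA by TPM (a measure in which every library has the same total) in the controls.

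Some of these values rest on sequence that other genes share. For Oog1, 93.4% of the 31-base words of its exons also occur in other annotated genes, 13 in all, chiefly Gm2042 with 90.2% of them, so how reads were shared among these copies is uncertain. For Zar1 the share was 41.4%, spread over 121 genes. Zp2 shared 0.3% and the other 7 genes 0%, and no exon of the 10 genes overlapped an exon of another gene. By GENCODE on GRCm38, Oosp1 lies at chr19:11667460-11691150 and Zp3 at chr5:135980099-135988624.

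**Figure D1:**
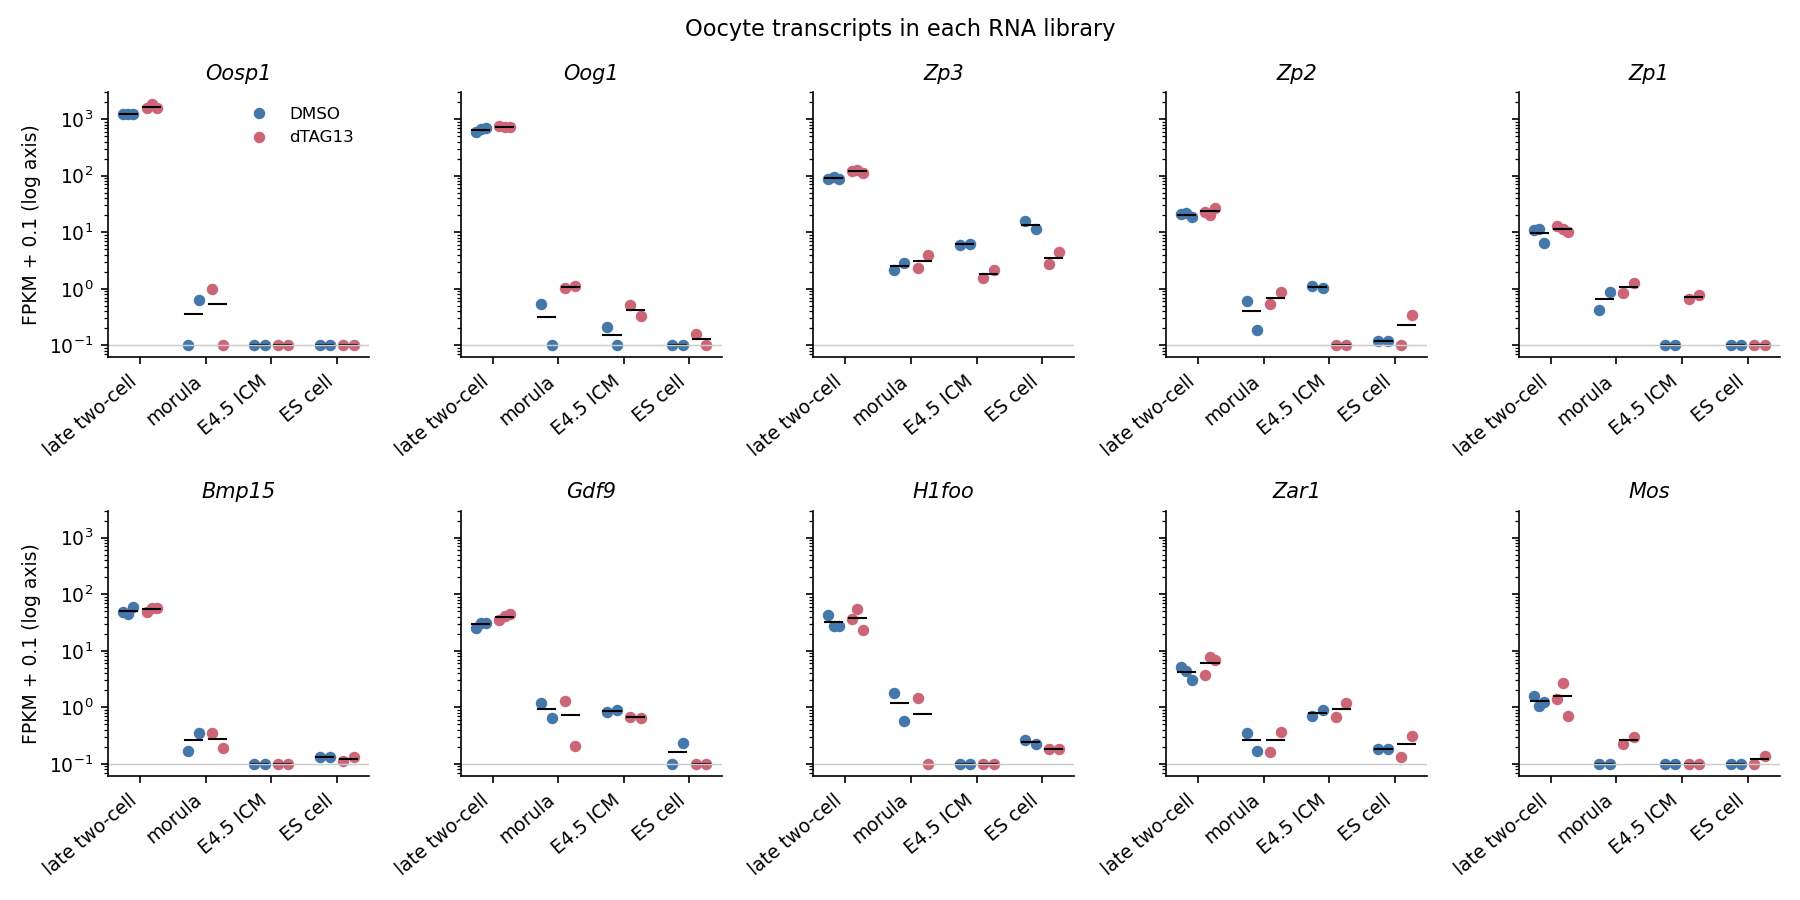
FPKM plus 0.1 on a log axis for each of the 10 oocyte transcripts, with one point per library (DMSO blue, dTAG13 red) at the 4 stages, a black bar for the group mean and a grey line where a gene was listed at 0. All 10 genes are highest at the late two-cell stage, and Zp3 is the gene that stays above 1 FPKM in every library.

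RefSeq promoter sequences (GRCm38.p6) were at hand for 6 of the 10 genes: Zp3, Oosp1, Oog1, Bmp15, H1foo (as H1f8) and Zar1. Starts are those of RefSeq. GENCODE starts Oosp1 at 11691150, Zar1 at 72581254 and Zp3 at 135980099, each inside its window. Part of these windows therefore lies in the gene as GENCODE draws it. The 250 bases before the RefSeq start are printed for Oosp1 and Oog1, the most abundant of the set, and for Zp3, the one above 1 FPKM in every library, each 5′ to 3′ on the gene's strand with E-boxes (CANNTG on either strand) in capitals:
Oosp1 chr19:11691052-11691301 (- strand): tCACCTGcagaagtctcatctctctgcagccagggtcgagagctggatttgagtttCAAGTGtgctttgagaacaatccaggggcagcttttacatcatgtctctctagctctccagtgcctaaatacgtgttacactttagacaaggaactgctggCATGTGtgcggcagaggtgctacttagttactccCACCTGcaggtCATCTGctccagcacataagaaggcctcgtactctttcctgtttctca
Oog1 chr12:87602415-87602664 (+ strand): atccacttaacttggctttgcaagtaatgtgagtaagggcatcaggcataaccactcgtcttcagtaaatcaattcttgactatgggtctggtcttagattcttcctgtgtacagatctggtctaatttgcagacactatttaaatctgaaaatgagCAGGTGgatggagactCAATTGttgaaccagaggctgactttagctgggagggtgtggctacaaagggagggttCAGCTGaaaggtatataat
Zp3 chr5:135979855-135980104 (+ strand): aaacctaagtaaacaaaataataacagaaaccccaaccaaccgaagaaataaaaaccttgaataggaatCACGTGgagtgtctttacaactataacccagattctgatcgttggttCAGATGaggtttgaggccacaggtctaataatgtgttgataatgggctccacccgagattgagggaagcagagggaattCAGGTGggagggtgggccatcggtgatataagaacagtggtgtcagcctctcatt
E-boxes are the sites of FIGLA, the basic helix-loop-helix factor that turns on the zona genes in oocytes. All 6 promoters held at least 1, and so did 66.2% of the 32851 promoters in the table. The form CACGTG, which is also counted as an E-box, was found in Zp3 alone of the 6, 181 bases before the start, and in 6.02% of all promoters. The core of the ETS sites that GABPA binds, CCGGAAG or CTTCCGG on the other strand, was in 0 of the 6 windows and in 6.91% of all promoters. The NOBOX site TAATTG was in 0 of the 6 and in 7.17% of all. A match describes letters in a window and not a site in use, and a window without one says nothing of the factor.

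The first comparison asked how the levels of the 10 transcripts differed between the late two-cell stage and the morula without dTAG13. All 10 transcripts fell between control late two-cell embryos and control morulae, and all 10 passed the cut-offs (a Benjamini-Hochberg adjusted p under 0.05 over 19830 genes in the quasi-likelihood test of edgeR, a 2-fold or larger change, and 1 FPKM or more as the mean of 1 of the groups). Of all genes tested, 27.7% passed in that direction. Only Gdf9 and Zp3 reached the minimum of 10 counts in both control morulae, and the others entered the fit through libraries of other stages. The set was picked as oocyte transcripts, so this count describes a fall and is no test of one. The median fitted log2 fold change of the 10 was -5.82, or -5.34 with Mos set to the bound given below, against -0.28 over all genes tested.

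Oosp1, Oog1 and Bmp15 stood at the smallest shares of their late two-cell means among the genes with counts in control morulae. Oosp1 had 0 and 3 counts in the 2 control morulae after 45683 counts in the late two-cell controls, a ratio, scaled to library totals, of 4820 with a 95% exact counting interval of 1650 to 23400. Oog1 fell by 11.48 on the log2 scale (SE 0.50, adjusted p = 5.9e-09 by edgeR) to 0.44 and 0 FPKM. Bmp15 fell by 8.18 (SE 0.35, adjusted p = 5.0e-09 by edgeR) to 0.07 and 0.25 FPKM. In these 3 genes 0.318% or less of the control late two-cell mean was left.

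The zona genes and Gdf9 stood at larger shares of their late two-cell means, and how much of this was egg RNA was not tested. Zp3 fell by 5.13 on the log2 scale (SE 0.26, adjusted p = 6.3e-09 by edgeR) and still lay at 2.06 and 2.79 FPKM in control morulae, 2.71% of its earlier mean. Gdf9 stood at 1.09 and 0.55 FPKM (2.80% left), Zp2 at 0.51 and 0.09 FPKM (1.47%) and Zp1 at 0.32 and 0.78 FPKM (5.79%). H1foo lay at 1.68 and 0.47 FPKM (3.30%) and Zar1 at 0.25 and 0.07 FPKM (3.91%). Mos had no count in either control morula, which makes it at least 10.4-fold lower, taking 3 counts over the group as the floor.

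These morula levels rest on few reads. In the 2 control morulae together Gdf9 had 27 counts, Zp2 12, H1foo 11, Bmp15 10, Zp1 9 and Zar1 5, and only Zp3, with 59, had more than 30. From Gdf9 down to Zar1 each gene's range in control morulae overlapped that of the next in order, so the order within that group carries no weight. The same 10 genes in the dTAG13 morulae lay at 0.0267% to 10.6% of their dTAG13 late two-cell means.

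In control ICMs 5 of the 10 genes had no count at all: Bmp15, Zp1, Mos, Oosp1 and H1foo. Against the late two-cell controls Oosp1 was at least 9430-fold lower, Bmp15 at least 1960-fold, H1foo at least 345-fold, Zp1 at least 181-fold and Mos at least 20.4-fold. These bounds again take 3 counts over the group, and they cover counting error only.

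In control ICMs against control morulae 3 of the 10 were higher and 4 lower by adjusted p alone (edgeR). Of the 19830 genes tested 4884 were higher and 4172 lower in this way. Zp3 rose from 2.06 and 2.79 FPKM to 5.95 and 6.13 FPKM (log2 fold change 1.17, SE 0.26, adjusted p = 0.0031 by edgeR), the one call of a higher member in a comparison where 16% of all genes were called higher. Zp2 stood at 1.03 and 0.94 FPKM (log2 fold change 1.66, SE 0.49, adjusted p = 0.016 by edgeR) and Zar1 at 0.60 and 0.80 FPKM (2.30, SE 0.69, adjusted p = 0.017 by edgeR), both under the FPKM cut-off. H1foo, at 11 counts in control morulae and 0 in control ICMs, was called lower, at least 7.17-fold, as were 13.2% of all genes. That call rests on 6 and 5 counts in the morulae, under the minimum of 10, and H1foo was fitted only through its late two-cell counts and not with the 2 stages alone. Without control morula replicate 1 none of the 10 passed all cut-offs, and Zp3 then had a log2 fold change of 0.96 (adjusted p = 0.037 by edgeR), or 0.91 with upper-quartile scaling (adjusted p = 0.015 by edgeR), in both cases short of 2-fold. Without control morula replicate 2 neither the Zp2 rise (adjusted p = 0.125) nor the Zar1 rise (adjusted p = 0.11) kept an adjusted p under 0.05 by edgeR.

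In control ES cells Zp3 was the one transcript of the set above a mean of 1 FPKM. It lay at 15.9 and 11.3 FPKM, above both control ICMs (log2 fold change 1.64, SE 0.22, adjusted p = 1.0e-04 by edgeR, 12% of all genes called higher), and at 15.2% of its late two-cell mean. Gdf9 had 0 and 6 counts in the 2 libraries, Zar1 5 and 5, H1foo 2 and 3, Bmp15 2 and 2 and Zp2 1 and 1. Zp1, Mos, Oosp1 and Oog1 had none. By adjusted p alone 3 of the 10 were lower than in control ICMs and 2 higher (edgeR), against 4113 and 4340 of the 19830 genes tested. Except in Zp3, these rest on the low ES cell counts just given. Zp3 had 863 counts over the 2 control ES cell libraries.

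The second comparison asked whether the oocyte stock differed at the late two-cell stage when GABPA was removed from the mid-zygote onwards. None of the 10 passed all 3 cut-offs, where 4.11% of 17421 genes did by edgeR and 3 of the 10 had an unadjusted p under 0.05, as did 21.3% of all genes. DESeq2 also called 0 of the 10 with all cut-offs. By adjusted p alone 1 of the 10 was higher and 0 were lower, against 1.32% and 7.24% of all genes.

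The one transcript past that line was Oosp1. It lay at 1592, 1852 and 1553 FPKM after dTAG13, above the controls at 1241, 1257 and 1224 FPKM in all 3 libraries (log2 fold change 0.39, SE 0.09, adjusted p = 0.020 by edgeR). The adjusted p rose to 0.082 without dTAG13 replicate 2, to 0.070 without DMSO replicate 1, to 0.068 without DMSO replicate 3 and to 0.175 with all 18 libraries in 1 fit.

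Zp3 lay at 120.95, 125.41 and 111.77 FPKM with dTAG13, again above all 3 controls (log2 fold change 0.35, SE 0.11, adjusted p = 0.077 by edgeR). Its adjusted p was 0.032 by DESeq2, 0.024 with library totals and 0.027 with upper-quartile scaling by edgeR. These were the only 3 of 12 other settings under 0.05, and the highest adjusted p was 0.257 by edgeR. Both scalings also moved the median of all genes up, as given below. Gdf9 at 34.2, 40.7 and 44.97 FPKM (0.36, SE 0.15, adjusted p = 0.20 by edgeR) and Oog1 at 765.13, 716.27 and 721.5 FPKM (0.10, SE 0.08, adjusted p = 0.55 by edgeR) also lay above every control library. That made 4 of 10 genes whose groups did not overlap on the higher side and 0 on the lower, where 14.8% and 12.9% of all genes tested stood apart in these ways.

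The other 6 overlapped between the groups. Bmp15 lay at 47.96, 57.9 and 57.4 FPKM with dTAG13, Zp2 at 23.1, 19.9 and 26.6 FPKM and Zp1 at 12.6, 11.5 and 9.85 FPKM. H1foo lay at 35.8, 53.9 and 23.3 FPKM, Zar1 at 3.69, 7.51 and 6.89 FPKM and Mos at 1.31, 2.63 and 0.60 FPKM. Mos, H1foo and Zar1 had the widest errors (SE 0.54, 0.31 and 0.30 on the log2 scale), and a change of the size seen in Oosp1 was not detectable in them.

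**Figure D2:**
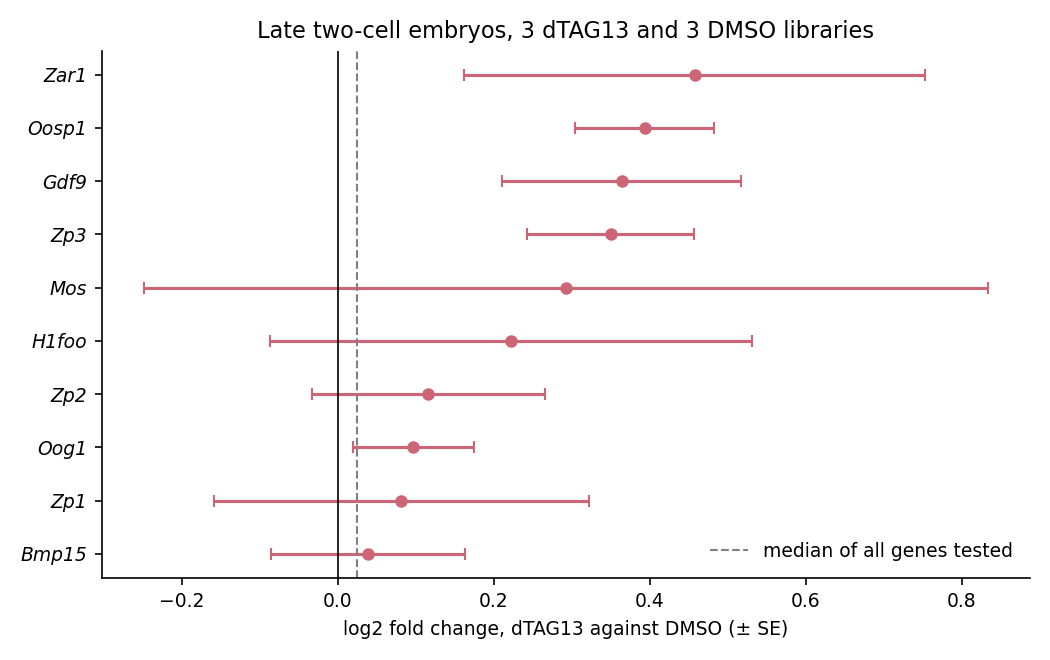
Log2 fold change (x axis) of each of the 10 transcripts (y axis) in late two-cell embryos, dTAG13 against DMSO, with bars for ± 1 SE from edgeR, a solid line at no change and a dashed line at the median of all genes tested. All 10 points lie right of 0, from 0.04 for Bmp15 to 0.46 for Zar1, and in 5 of 10 (Bmp15, Zp1, Zp2, Mos and H1foo) the bar reaches across it.

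All 10 fitted values were above 0, as were 9108 of all 17421 genes tested. The median of the 10 was 0.26 on the log2 scale against 0.02 over all genes tested. The direction of all 10 was the same with library totals, upper-quartile scaling and DESeq2, where the median of the 10 was 0.32, 0.38 and 0.27. Library totals moved the median of all genes up by 0.0776 and upper-quartile scaling by 0.118 (log2). The unchanged direction under these scalings therefore adds no support. With the replicate block all 10 were above 0 with a median of 0.15. Without dTAG13 replicate 2, 7 of 10 were above 0, also with a median of 0.15, and without any one DMSO replicate 9 of 10 were. The summed level of the set was 1979 to 2062 TPM in the controls and 2443 to 2678 TPM after dTAG13, a sum that Oosp1 and Oog1 dominate. Without dTAG13 replicate 1, the library with the highest sum of blood markers, all 10 stayed above 0 and the median was 0.31. Among the cumulus and granulosa markers, of which 6 of 16 could be tested, 1 was higher by adjusted p and 1 lower, and the summed FPKM of the list was 46.4 to 61.5 in the controls and 46.5 to 51.1 after dTAG13.

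Genes that act with the 10 in the oocyte were described in the same way. Of 27 other oocyte transcripts, all tested, 23 had a fitted value above 0 at the late two-cell stage and the median log2 fold change was 0.19. By adjusted p 2 were higher and 1 lower. The lower one was Gtsf1, a piRNA pathway factor, at a mean of 22.3 FPKM after dTAG13 and 65.5 FPKM in controls (log2 fold change -1.61, adjusted p = 3.0e-04 by edgeR), the only gene of these lists past all cut-offs. The most abundant of the list, Dppa3 (Stella, which protects the maternal genome from demethylation), had a log2 fold change of 0.00 (SE 0.07), and Tcl1 one of 0.37 (SE 0.13, adjusted p = 0.11 by edgeR).

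The relatives of Oosp1 and Oog1 also had values above 0 in 5 of 5 cases, with 0 past the adjusted p. Oog3 had a mean of 1870 FPKM in controls and 2550 FPKM after dTAG13 (log2 fold change 0.37, SE 0.13, adjusted p = 0.11 by edgeR), and Oosp3 178 and 229 FPKM. Of the transcription factors that drive oocyte genes, 7 of 8 could be tested and 0 passed. Nobox, a homeobox factor of oocytes, had a mean of 3.75 FPKM in controls and 4.16 FPKM after dTAG13, and Taf4b, a TFIID subunit of the germline, 32.7 and 34.6 FPKM.

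The partners of the individual proteins gave 0 genes past the adjusted p in either direction: 0 of 11 tested receptors, SMADs and relatives for GDF9 and BMP15 (Smad2 at a mean of 13.7 FPKM in controls and 16.7 FPKM after dTAG13), 0 of 4 genes for the zona and sperm binding (Cd9, a tetraspanin of the egg membrane, at 270 and 323 FPKM), and 0 of 13 in the MOS pathway and meiotic arrest (Ccnb1, cyclin B1, at 1880 and 1780 FPKM). The same was so for 0 of 4 linker histones tested (H1f0 at 13.6 and 13.1 FPKM) and 0 of 9 partners of ZAR1 in mRNA storage (Eif4enif1 at 42.0 and 54.6 FPKM).

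**Figure D3:**
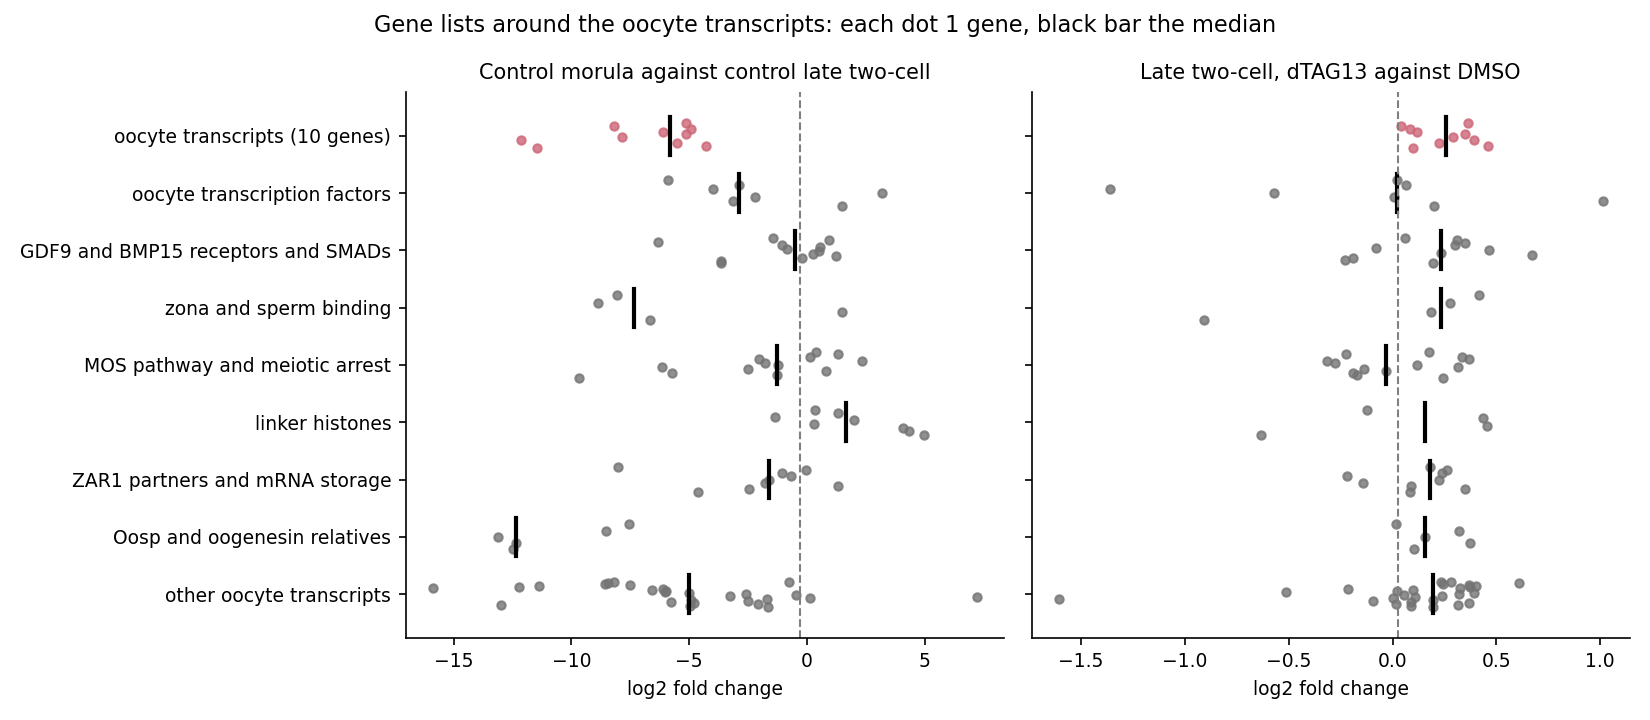
Log2 fold changes (x axes) of the 10 oocyte transcripts (red) and 8 related gene lists (grey), with one dot per gene, a black bar for the list's median and a dashed line for the median of all genes tested. On the left, control morula against control late two-cell, the 10 genes have a median of -5.82, and dots of genes listed at 0 in morulae are fitted values and no bounds. On the right, dTAG13 against DMSO at the late two-cell stage, the median is 0.26.

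The same lists were followed to the morula, where 27.7% of all genes were called lower and 22.6% higher. Between control late two-cell embryos and control morulae 22 of 27 other oocyte transcripts and 5 of 5 relatives of Oosp1 and Oog1 were called lower. Both lists were also picked as oocyte genes, so these counts describe a fall and do not test it. Of 8 linker histones tested 2 were called higher and 1 lower, with a median of 1.65 on the log2 scale. Of the 12 receptors, SMADs and relatives 4 were called lower and 1 higher. Dppa3 had a mean of 9670 FPKM in late two-cell controls, 10200 FPKM in control morulae and 1530 FPKM in control ICMs.

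In morulae the dTAG13 comparison reached few of these transcripts: 4 of the 10 (Gdf9, Zp2, Zp3 and Oog1) had enough counts to be tested, and 0 were called, where 0.351% of 13667 genes were. By edgeR 1 of the 4, Oog1, had an unadjusted p under 0.05, as did 13.6% of all genes, and DESeq2 also called 0. Oog1 lay at 0.94 and 1.03 FPKM with dTAG13 against 0.44 and 0 FPKM in controls (18.57 and 16.58 expected counts against 5.51 and 0, adjusted p = 0.32 by edgeR). Zp3 lay at 2.27 and 3.82 FPKM with dTAG13, a range that overlapped its controls (log2 fold change 0.39, SE 0.47, adjusted p = 0.76 by edgeR). With at most 51 counts per library in any of the 10, a change under several-fold was not detectable at this stage.

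In the ICM Zp3 was lower with dTAG13. It lay at 1.43 and 2.02 FPKM after dTAG13 against 5.95 and 6.13 FPKM in controls (log2 fold change -1.86, SE 0.21, adjusted p = 6.7e-10 by edgeR), the one member called, in a comparison where 13.2% of all genes were called lower. Zp2 had 0 counts in both dTAG13 libraries against 44 and 37 in controls, at least 25.0-fold lower (adjusted p = 1.6e-10 by edgeR), and missed the FPKM cut-off with a control mean of 0.985 FPKM, which it passed without control replicate 2, making 2 members called. Zp1 had 5 and 10 counts after dTAG13 and none in controls, too few reads for the edgeR fit of this stage, so no change is read from it.

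Gdf9 (17 and 17 counts after dTAG13, 24 and 25 in controls) had an adjusted p of 0.24 and Zar1 (11 and 27 counts against 21 and 32) one of 0.31 by edgeR. Oog1 had 9.85 and 5.74 expected counts after dTAG13 against 5.11 and 0. Over the other settings that fitted them the log2 fold change ran from -1.19 to 0.05 in Zar1 and from 0.76 to 6.02 in Oog1. Bmp15, Mos, Oosp1 and H1foo were at 0 in all 4 ICM libraries.

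Replicates of the ICM differed from each other little more than counting noise, with a chi-square per gene of 1.95 in the controls and 1.99 after dTAG13, against 5.17 to 71.5 for replicate pairs of the other groups. The edgeR p-values at this stage therefore rest on a smaller spread (biological coefficient of variation 0.0237, against 0.159 to 0.284 at the other stages), and 38.5% of all genes were lower and 38.4% higher by adjusted p alone. The counts cannot tell separate pools of embryos from 1 pool split in 2, and in the latter case each ICM group would hold 1 sample and these p-values would measure technical spread. With the spread shared over all 18 libraries Zp3 was still called. Markers of the cell types differed between the groups as well: the 7 trophectoderm markers summed to 73.0 to 78.2 FPKM in control ICMs and 850 to 856 FPKM after dTAG13, the 8 primitive endoderm markers to 567 to 568 FPKM and 1100 FPKM, and the 10 epiblast and ES cell markers to 947 to 955 FPKM and 548 to 562 FPKM. The study took the ICMs at a time chosen to come before epiblast cell numbers differed, and the part of cell numbers in the Zp3 difference was not tested here. A smaller share of Zp3-bearing cells and less Zp3 RNA per cell cannot be told apart in these pooled libraries.

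In ES cells Zp3 was the only one of the 10 with enough counts to test, and it was lower after 24 h of dTAG13. It lay at 2.59 and 4.36 FPKM against 15.9 and 11.3 FPKM in controls (75 and 102 counts against 507 and 356), with a log2 fold change of -2.01 (SE 0.31, adjusted p = 0.0019 by edgeR). In this comparison 15.6% of all genes were called lower. The remaining 9 genes had at most 6 counts in any ES cell library. The ES cell markers summed to 655 to 816 FPKM in controls and 533 to 581 FPKM after dTAG13, and 3 of 10 were called lower.

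**Figure D4:**
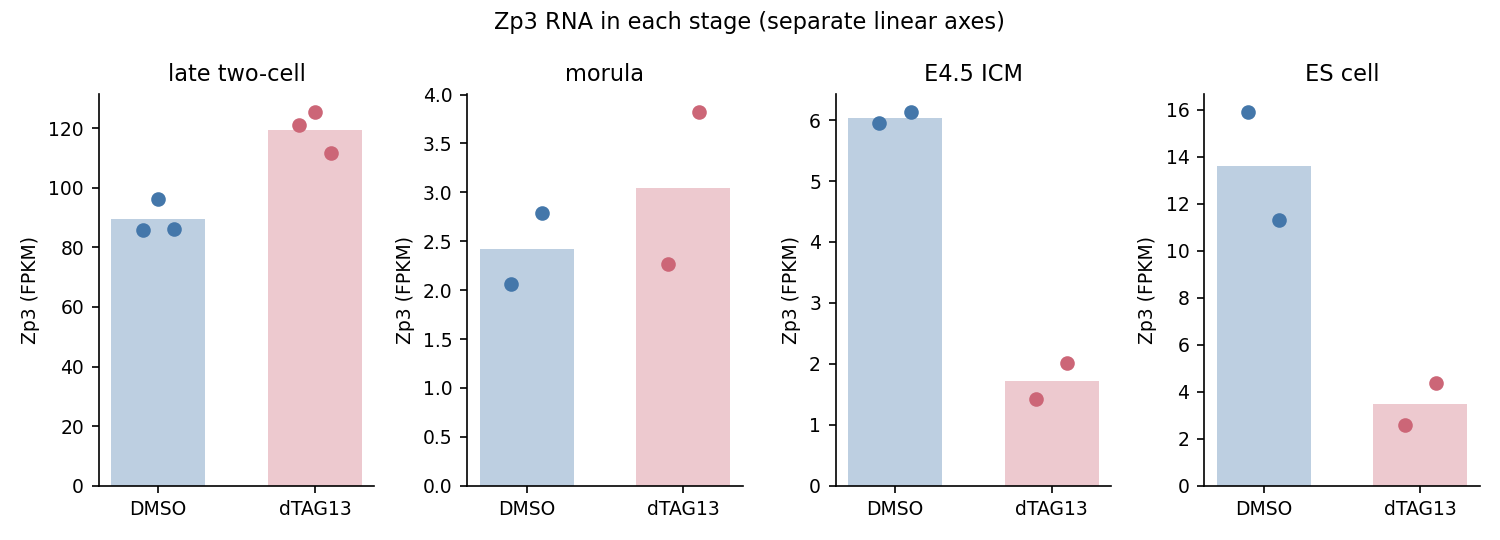
Zp3 FPKM (y axes, linear, each stage on its own scale from 0) in DMSO and dTAG13 libraries of the 4 stages, with bars for the group mean and one point per library. The dTAG13 points lie above the controls at the late two-cell stage, overlap them in morulae, and lie below them in the ICM (1.43 and 2.02 against 5.95 and 6.13 FPKM) and in ES cells (2.59 and 4.36 against 15.9 and 11.3 FPKM).

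Whether the response of Zp3 differed between stages was tested as an interaction over all 18 libraries. The dTAG13 effect at the late two-cell stage exceeded that in the ICM by 2.19 on the log2 scale (SE 0.34, adjusted p = 2.0e-04 by edgeR), and 9.87% of all genes tested differed in that direction. Between the late two-cell stage and the morula the difference was -0.12 (SE 0.37, adjusted p = 0.99 by edgeR), and between the ICM and ES cells 0.11 (SE 0.39, adjusted p = 0.99 by edgeR), an error that leaves room for a difference of either sign. Over the 10 genes, 3 differed between the late two-cell stage and the ICM, where 20.3% of all genes did, 1 between the ICM and ES cells (17.4%) and 0 between the late two-cell stage and the morula (6.47%). One of the 3 was Zp1, with 15 counts after dTAG13 and 0 in controls in the ICM. It entered the fit through its late two-cell counts, so no change in the ICM is read from it. The one between the ICM and ES cells was Zp2, with 2 counts in each ES cell group, so it carries no measured response in ES cells.

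The genes whose pattern over the 18 libraries was most like that of the 10 were found by Pearson's r with the mean of their standardised log2(FPKM + 0.1). Of 9807 genes with a mean of at least 10 FPKM in a group, the closest were Gm36976, Unc13c, Relch, Oog3, Rfpl4, Gm42553, Gm45663, Wee2, Obox7 and Btg4, with r from 0.9935 to 0.9966. Wee2 is the oocyte kinase that keeps meiosis arrested, and Btg4 an adaptor of the CCR4-NOT deadenylase that clears maternal messages. Btg4 had a mean of 349 FPKM in late two-cell controls and 0.035 FPKM in control morulae. In all, 651 genes had an r above 0.95, and since libraries of one stage share most of this pattern the 18 points are not independent. Among the 10 themselves r with the mean ran from 0.907 for Zar1 and 0.913 for Zp3 to 0.991 for Bmp15.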

How the data were processed

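RNA-seq was read in 18 Gabpa-dTAG/dTAG libraries, grouped by the labels. The cDNA was made, per the labels, with a SMART-Seq v4 kit, a chemistry that is primed on poly(A) and does not mark strand. The authors trimmed reads with Trimmomatic 0.39, mapped them to GRCm38 with STAR and quantified genes with RSEM. The deposited files give RSEM expected counts, in which reads that match several genes are shared between them and which are not normalised. The authors' TPM and FPKM values in the same files are scaled to library size and effective length. The deposited posterior standard deviations and lengths entered no test.

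The 10 genes and the related lists were chosen with earlier results of these data known. Symbols came from GENCODE vM21, where 54487 of 55385 gene IDs matched with their version. Expected counts were rounded and tested with edgeR 4.0.16 (R 4.3.3, TMM scaling, quasi-likelihood) on genes with at least 10 counts in as many libraries as the smallest group holds, with Benjamini-Hochberg adjustment over all genes tested. Each stage was fitted alone for dTAG13, the 9 DMSO libraries together for stages, and all 18 libraries for differences between stages. The cut-offs were an adjusted p of 0.05, a 2-fold change and a mean of 1 FPKM, and differences between stages used the adjusted p alone. SE is the log2 fold change divided by the square root of edgeR's F. The fits were tested on simulated counts. Intervals are exact at 95% and, like the floor of 3 counts, cover counting error only, since reads carried no molecular identifiers.

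Alternatives were library totals, upper-quartile scaling, DESeq2 1.42.0, no count filter, no fold threshold, the FPKM mean over all libraries, TPM, a replicate block, other sets of libraries and leaving out each library. The genes named are the 10, from each related list up to 3 called at the late two-cell stage by lowest adjusted p and up to 2 of the highest control FPKM there, and the 10 genes most alike in pattern. The CUT&RUN, ATAC-seq and H3K27ac samples were not analysed here.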

Additional observations from a re-analysis of the deposited data

Results flagged for a closer look

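The differences between stages listed here passed the adjusted p in the interaction test of edgeR over 18 libraries with Benjamini-Hochberg adjustment. The Zp3 response to dTAG13 was 2.19 higher on the log2 scale in late two-cell embryos than in the ICM (adjusted p = 0.000202), with all 3 dTAG13 libraries above the controls at the first stage and both below them at the second.

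The Zp2 response differed between the late two-cell stage and the ICM (adjusted p = 4.45e-05) and between the ICM and ES cells (adjusted p = 0.0204). Zp2 had 81 counts in the control ICMs and 0 after dTAG13, and 2 counts in each group of ES cells. The ES cell libraries thus hold no measured response, and the second difference restates the ICM contrast. Its difference between the ICM and ES cells did not pass without ICM dTAG13 replicate 1 (adjusted p = 0.054), without ICM dTAG13 replicate 2 (adjusted p = 0.0554) or without ES cell dTAG13 replicate 2 (adjusted p = 1), nor with the replicate block (adjusted p = 0.0705), all by edgeR.

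The Zp1 response differed between the late two-cell stage and the ICM (adjusted p = 0.0139), where it had 15 counts after dTAG13 and 0 in controls. These were too few for the fit of the ICM alone, and Zp1 entered the test through its late two-cell counts, so no change in the ICM is read from it. By edgeR this did not pass without ICM DMSO replicate 1 (adjusted p = 0.0798), without ICM DMSO replicate 2 (adjusted p = 0.072) or without ICM dTAG13 replicate 2 (adjusted p = 0.0759). No size of the stage difference is given for Zp1 and Zp2, since the fold against a group at 0 has no upper bound. The part of the trophectoderm and epiblast markers that moved in the same ICM libraries was not tested.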

How the results depend on the processing

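Of 72 recounts of the 10 genes under other settings 65 stayed within 1.5 times, as did 52 of 59 with 1 library left out. At the late two-cell stage 1 gene, Oosp1, was called with no fold threshold. For control ICMs against control morulae 1 was called, in place of 2, with upper-quartile scaling, with the FPKM mean over all libraries and with the 2 stages alone, and 0 to 2 with 1 library left out (0 without morula DMSO replicate 1). Leaving out ICM DMSO replicate 2 raised the count from 1 to 2 for dTAG13 in the ICM and for control ES cells against control ICMs, each with a range of 1 to 2. Between the late two-cell stage and the morula 1 response, that of Oog1, differed in place of 0 by DESeq2, with no count filter and without morula DMSO replicate 1 (range 0 to 1). Between the ICM and ES cells the range was 0 to 1.

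With 1 library left out, the late two-cell log2 fold change turned in Bmp15 (-0.0262 to 0.157), Zp1 (-0.139 to 0.28), Mos (-0.391 to 0.671) and H1foo (-0.146 to 0.535), none past the adjusted p where it turned. The cause was not tested. Over all genes, dTAG13 called 48 in morulae, but 110 with library totals, 111 by DESeq2, 245 with no filter, 200 with all 18 libraries and 102 to 366 without DMSO replicate 2 or either dTAG13 replicate. With no fold threshold the calls went from 716 to 1473 at the late two-cell stage, 4000 to 10455 in the ICM and 4339 to 7334 in ES cells. Leaving out 1 library took the stage differences from 1417 to as few as 855 (late two-cell and morula), from 4445 to 2427 (late two-cell and ICM) and from 3803 to 2103 (ICM and ES cells).

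Replicate numbers are not said to pair libraries. Same-numbered libraries had deviations correlated at 0.062 to 0.147 at the late two-cell stage, where all 3 controls were closest to their own number, 0.027 in morulae, 0.01 in the ICM and -0.185 in ES cells. With the replicate block 248 genes were called in morulae in place of 48, and 0 of the 10 in place of 1 differed between the ICM and ES cells. The block moved no other count by over 1.5 times, and took the late two-cell median of the 10 from 0.257 to 0.15 (log2). A crossed pairing in ES cells, chosen after seeing the data, called 4430 genes in place of 4339. Upper-quartile scaling moved the median of all genes by 0.157 for control morulae against late two-cell controls, 0.103 for dTAG13 in the ICM and 0.183 in ES cells, and library totals moved it by -0.326 for control ES cells against control ICMs (log2). Low counts of the 10 genes limit every stage after the late two-cell. Of the 10, 4 could be tested for dTAG13 in morulae, 4 in the ICM and 1 in ES cells. The morula libraries were shallow, at 9457933 to 12382705 expected counts, against 20449966 to 23718870 at the late two-cell stage. The ICM libraries held 18266057 to 20818291 and the ES cell libraries 20146785 to 27660132, ranges that overlapped that of the late two-cell stage.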
